A study of Homo sapiens with 37 samples.

Results

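The comparison concerns the total RNA of 2 cell populations that differ in the fusion protein they carry: 2 input libraries of C1-APEX cells and 2 input libraries of APEX-GFP cells, 4 of the 37 libraries of the series. The libraries are those whose labels name these constructs, the input fraction and the naive condition. All 4 came from HEK293T, a human embryonic kidney line, under the condition labelled Naive, that is without stress. An input is the RNA of the cells before biotinylated RNA is enriched on streptavidin beads; the bead-bound RNA is the pulldown. The protocol in the labels gives all samples 500 µM biotin-phenol for 30 min and H2O2 at 1 mM for 1 min before extraction with TRIzol, so both groups carried an APEX peroxidase and received the labelling reagents, and neither group is a line without a construct. The same table holds 6 naive inputs of 3 further constructs, APEX-CBX1, APEX-eIF4E and APEX-eIF4A, 2 each, which gave the spread of each ID and a scale for the C1-APEX to APEX-GFP difference. The name of the eIF4A replicate 2 column stands in the labels of 2 samples, and it was read as the naive one, so the eIF4A values and the fit rest on that reading.

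APEX is an engineered plant peroxidase that, given biotin-phenol and peroxide, marks RNA and protein close to it. In C1-APEX it is joined to the membrane anchor of a cytochrome P450, which holds the enzyme on the cytosolic face of the endoplasmic reticulum, the membrane where secreted and membrane proteins are made. APEX-GFP has no such anchor and serves as the untargeted fusion. Cells sense crowding of this membrane and misfolded proteins within it through the unfolded protein response, a set of signalling routes that alters many mRNAs, so the inputs show whether steady-state RNA differed between the populations before any enrichment is considered. The labels do not state the promoter of either construct, whether a population is a single clone, or whether replicates are separate cultures. Spread between replicates, and every p-value built on it, may thus be technical. No culture, preparation or sequencing batch is labelled, so a batch and the construct cannot be told apart.

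The table counts reads for 60483 versioned Ensembl gene IDs and holds no gene names, and the gene table used here matched 0 of them. HEK293T markers, stress pathways and other gene groups were therefore not looked up here, and IDs are described by their levels and differences. APEX and GFP are not encoded by human genes, and no ID was matched to CBX1, eIF4E or eIF4A. The presence of each construct was therefore not checked. In bulk RNA, fewer cells that express a gene and less of its RNA per cell cannot be told apart.

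The C1-APEX inputs held 1918014 and 1419968 counts and the APEX-GFP inputs 2270911 and 2341595. Most counts fell on a few IDs. The 10 highest IDs of the table took 71.98% and 71.13% of counts in C1-APEX and 68.69% and 69.54% in APEX-GFP, so the C1-APEX libraries were the higher pair without overlap. In the 6 inputs of the other constructs this share ran from 68.55% to 75.33%, a range that includes both groups. No more than 537391 counts per C1-APEX library and 713366 per APEX-GFP library were left for all other IDs, which limits what can be seen at low levels. Between the groups these 10 IDs had log2 fold changes of -0.14 to 0.34, and the lowest edgeR adjusted p among them was 0.0871.

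Replicates resembled each other more than the groups did. Across the 1735 IDs with a mean level of at least 5 log2 CPM (counts scaled to a common library depth), the C1-APEX replicates correlated at 0.979 and the APEX-GFP replicates at 0.987, while libraries of different groups correlated at 0.950 to 0.955; IDs are not independent replicates. Total counts differed between the replicates of each group, so neither pair was a copied column. The chi-square statistic per ID was 1.33 for C1-APEX and 1.31 for APEX-GFP, where sampling noise alone gives 1. Replicates thus varied little beyond counting noise, and this does not tell whether they are technical.

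Total RNA differed between the populations in 469 of 10019 tested IDs, 4.68% of those tested. Of these, 230 were higher in C1-APEX (2.3% of tested IDs) and 239 lower (2.39%). The differences were modest in size: the median log2 fold change was 0.88 for the higher and -0.68 for the lower IDs, against 0.00 over all tested IDs. Large differences were mostly on the higher side. At least a 2-fold difference was found in 96 higher and 35 lower IDs, and at least a 4-fold difference in 19 higher and 1 lower ID. The test was edgeR's quasi-likelihood F test over all 10 naive inputs with Benjamini-Hochberg adjustment over all tested IDs; 1817 IDs had an unadjusted p under 0.05. In all 469 the 2 C1-APEX libraries lay on one side of the 2 APEX-GFP libraries, but so they did in 4906 tested IDs (49%).

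The count differed between settings. It was 441 in a fit of the 4 libraries alone and 600 with library size in place of TMM scaling. With the naive pulldowns added to the fit 41 IDs were called, and all 41 were among the 469; DESeq2 called 125, of which 121 were among them. Leaving out 1 library gave 167 without C1-APEX replicate 1, 284 without C1-APEX replicate 2, 232 without APEX-GFP replicate 1 and 203 without APEX-GFP replicate 2, in fits where that group has a single library. With library size, the median over all tested IDs moved from 0.00 to -0.16 and the higher IDs fell from 49% to 16.3% of calls, so the balance of directions is relative to the TMM reference.

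**Figure D1:**
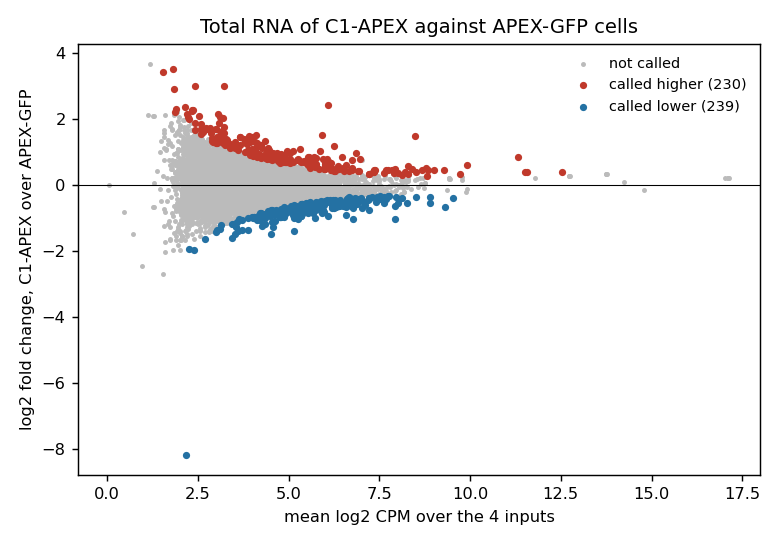
Log2 fold change of C1-APEX over APEX-GFP inputs (vertical) against the mean log2 CPM over the 4 libraries (horizontal), 1 point per tested ID, with called IDs in red (230 higher) and blue (239 lower). Called IDs lie closer to 0 at higher levels; the point at -8.20 is an ID with no count in either C1-APEX input, whose fitted value is not a measured fold.

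Detection followed the depth. Among 5856 IDs under 4 log2 CPM, with a median of 16.8 raw counts per library, 1.74% were called, 79 higher and 23 lower, and 96 of these 102 calls were at least 2-fold (75 higher, 21 lower). Between 4 and 6 log2 CPM there were 86 higher and 125 lower IDs of 3570 (5.91%), and between 6 and 8, 45 higher and 82 lower of 515 (24.7%). Of the 78 IDs at 8 log2 CPM and over, 20 were higher and 9 lower (37.2%), with median log2 fold changes of 0.43 and -0.43. The median standard error of a log2 fold change fell from 0.39 in the lowest to 0.09 in the highest of these tiers. Most of the large higher calls were thus IDs with few counts, while at 4 to 8 log2 CPM lower calls were the more frequent.

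The called IDs carried a sizeable part of the RNA outside the 10 highest IDs. By construction of the set these shares differ between the groups, so they are a description. The 230 higher IDs took 13.4% and 13.1% of those counts in C1-APEX and 9.36% and 9.35% in APEX-GFP. For the 239 lower IDs the shares were 5.25% and 5.29% in C1-APEX and 8.05% and 8.14% in APEX-GFP. Inputs of the other constructs fell near one group or the other. The higher IDs took 13.6% and 13.4% in the eIF4A inputs and 13.8% and 14.6% in the eIF4E inputs, near C1-APEX, but 9.58% and 9.23% in the CBX1 inputs, near APEX-GFP. The lower IDs gave the same picture, with 4.93% to 5.65% in eIF4A and eIF4E inputs and 7.92% and 7.96% in CBX1 inputs.

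As the gene table used here gave no symbols, 4 IDs are given as examples by their Ensembl IDs, and they were picked on their values. In each direction, among called IDs with a mean of at least 2 log2 CPM, these were the one with the largest fold change and the one with the smallest p. All values are TMM-scaled CPM.

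Over all called IDs the highest log2 fold change was 3.53. Among those with a mean of at least 2 log2 CPM, ENSG00000179388.8 had the largest increase. It measured 22.0 and 22.5 CPM in the C1-APEX inputs, on 42 and 33 counts, and 2.29 and 3.07 CPM in the APEX-GFP inputs, on 6 and 8 counts. The groups were far apart, and the C1-APEX replicates nearly equal. The log2 fold change was 3.02 ± 0.36 (SE; edgeR adjusted p = 1.34e-07). The level was also high in eIF4E inputs, at 30.4 and 35.0 CPM, intermediate in eIF4A at 5.89 and 11.2, and low in CBX1 at 3.66 and 2.53, so C1-APEX was not the highest construct. In pulldowns it measured 22.8 and 43.2 CPM for C1-APEX and 6.39 and 1.03 for APEX-GFP, with 3.19 ± 0.53 (SE) as the log2 difference and an edgeR adjusted p of 0.0120.

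ENSG00000251562.6 had the smallest p. Its level was 557 and 641 CPM in the C1-APEX inputs and 234 and 190.4 CPM in the APEX-GFP inputs, with no overlap and on at least 496 counts in each library. The means were 599 ± 59.6 and 212 ± 30.5 CPM (SD, n = 2), and the log2 fold change was 1.496 ± 0.10 (SE; edgeR adjusted p = 4.56e-15). C1-APEX had the highest mean of the 5 constructs here: eIF4E measured 518 ± 22.5, eIF4A 418 ± 69.6 and CBX1 164 ± 6.48 CPM (SD, n = 2). C1-APEX was above the mean of those 3 by 0.86 (edgeR adjusted p = 2.82e-10) and APEX-GFP below it by 0.64 on the log2 scale (log2 difference -0.64; edgeR adjusted p = 2.27e-06). In pulldowns the levels were 1397 and 1285 CPM for C1-APEX and 426 and 519 CPM for APEX-GFP (log2 difference 1.505 ± 0.17, SE; edgeR adjusted p = 0.000396), a difference of the same size as in the inputs.

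ENSG00000092067.5 was lower in C1-APEX by the widest margin. It had 0 counts in both C1-APEX inputs and 60 and 40 counts, or 22.9 and 15.4 CPM, in the APEX-GFP inputs. A count of 0 allows up to 3 counts over the 2 C1-APEX libraries, or 0.888 CPM, so the level was at least 21.5-fold lower than in APEX-GFP (edgeR adjusted p = 4.28e-08; counting error only). Both C1-APEX pulldowns also had 0 counts, against 77 and 77 in the APEX-GFP pulldowns, at least 49.7-fold lower by the same floor over those libraries (edgeR adjusted p = 0.000250). C1-APEX was not alone in lacking it. The CBX1 inputs had 0 and 0 counts and the eIF4E inputs 2 and 0, while the eIF4A inputs had 11 and 39, or 9.25 and 16.8 CPM. APEX-GFP lay above the mean of the other 3 constructs (edgeR adjusted p = 3.74e-09). For C1-APEX the same test could not decide (edgeR adjusted p = 0.9997). Both C1-APEX and CBX1 had 0 counts, so their fitted values are not measured levels, and the mean includes CBX1.

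ENSG00000109971.12 had the smallest p among lower IDs. It measured 170.3 and 170.0 CPM in the C1-APEX inputs and 334 and 360 CPM in the APEX-GFP inputs, so the replicates of each group lay close together and the groups apart. The log2 fold change was -1.03 ± 0.10 (SE; edgeR adjusted p = 2.32e-09). Levels in the eIF4A inputs (179 ± 20.5 CPM) and eIF4E inputs (176 ± 39.8) were near C1-APEX, while CBX1 inputs measured 456 ± 6.22 CPM (SD, n = 2), above APEX-GFP. In pulldowns it measured 246 and 166 CPM for C1-APEX and 346 and 378 CPM for APEX-GFP, with -0.82 ± 0.17 (SE) as the log2 difference and an edgeR adjusted p of 0.0452.

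**Figure D2:**
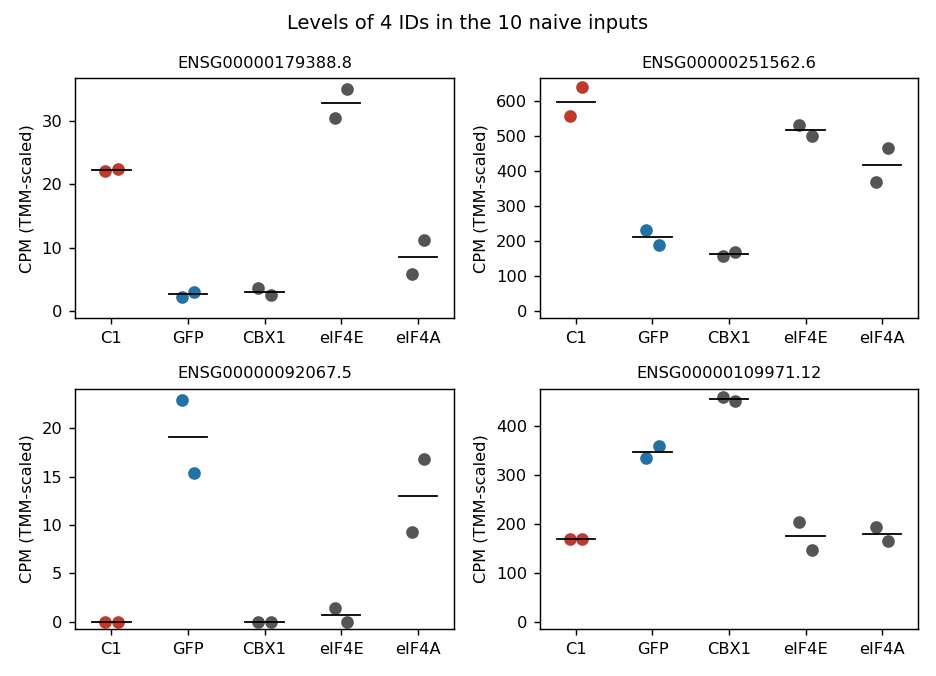
TMM-scaled CPM (vertical, linear) of the 4 printed IDs in the 10 naive inputs, 2 points per construct with their mean as a line; C1-APEX is red and APEX-GFP blue. In the first, second and last panels eIF4E and CBX1 inputs lie on the sides of C1-APEX and APEX-GFP respectively; ENSG00000092067.5 is at 0 in C1-APEX and CBX1.

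Set beside the other constructs, fewer IDs were called for C1-APEX than for APEX-GFP. Against the mean of CBX1, eIF4E and eIF4A inputs, 86 IDs were called for C1-APEX (0.858% of tested IDs; 53 higher, 0.529%, and 33 lower, 0.329%). For APEX-GFP against the same mean 479 were called (4.78%; 253 higher, 2.53%, and 226 lower, 2.26%; both edgeR). These comparisons share libraries with each other and with C1-APEX over APEX-GFP, so their values are only set side by side. The mean also holds eIF4E and eIF4A, whose shares above were near C1-APEX, while only CBX1 was near APEX-GFP. The counts thus depend on which constructs are averaged. C1-APEX libraries also held fewer counts outside the 10 highest IDs than APEX-GFP libraries, and the effect of this on the counts was not tested. Over the 230 higher IDs the median log2 difference from that mean was 0.45 for C1-APEX and -0.50 for APEX-GFP. Over the 239 lower IDs the medians were -0.28 and 0.36. For C1-APEX, 2 IDs were called against each of the other 4 constructs in one direction (edgeR), both higher. The same count was 10 for APEX-GFP, 30 for eIF4A, 43 for CBX1 and 92 for eIF4E. The count of 86 was 23 without C1-APEX replicate 1 and 41 without replicate 2, and that of 479 was 197 without APEX-GFP replicate 1 and 155 without replicate 2. With library size in place of TMM, higher IDs made up 93.2% of calls for C1-APEX, against 61.6%, and 96.7% for APEX-GFP, against 52.8%.

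The number of IDs that separated C1-APEX from APEX-GFP lay within the range of the 10 pairs of constructs. The fewest were called between APEX-GFP and CBX1, 110 (1.1%), followed by 154 between C1-APEX and eIF4A (1.54%) and 248 between C1-APEX and eIF4E (2.48%). C1-APEX and CBX1 differed in 699 (6.98%), and APEX-GFP and eIF4A in 584 (5.83%). The most were called between CBX1 and eIF4E, 1360 (13.6%), and between APEX-GFP and eIF4E, 1261 (12.6%). By these counts C1-APEX inputs were nearer to the inputs of both initiation factors, and APEX-GFP inputs to those of the chromatin protein CBX1. Such counts may vary with depth, which differed between inputs, and this was not tested. The first component of a principal component analysis of the IDs with at least 5 log2 CPM ordered the libraries likewise, but the second did not. The first component, with 43% of the variance, placed C1-APEX at -2.85 and -3.62, eIF4A at -4.20 and -3.55 and eIF4E at -9.56 and -10.59. On it APEX-GFP lay at 7.25 and 8.04 and CBX1 at 9.45 and 9.64. The second component, with 19.3%, placed C1-APEX at 0.5 and 0.9 and APEX-GFP at 0.7 and 0.1. On it eIF4A lay at 9.5 and 7.5, eIF4E at -6.4 and -6.2 and CBX1 at -3.0 and -3.6.

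The 469 IDs were also read in libraries of neither construct. The 3 pairs among CBX1, eIF4E and eIF4A inputs share no library with C1-APEX or APEX-GFP, though they share the fit. Of the 469 IDs, 414 (88.3%) differed in the same direction in eIF4E over CBX1 as in C1-APEX over APEX-GFP, against 62.8% of all 10019 tested IDs. The called IDs had more counts in the C1-APEX and APEX-GFP inputs, with a median of 90.5 per library against 27 over all tested IDs. The shares over all tested IDs given here are thus not matched for level. The median log2 difference of eIF4E over CBX1 was 0.66 for the 230 higher and -0.50 for the 239 lower IDs. In eIF4E over CBX1, 249 of the 469 were called the same way and 7 the opposite way (edgeR). Over all tested IDs, 1130 were called the same way and 230 the opposite way. The 249 made up 53.1% of the 469 and 18.3% of the 1360 IDs called in that pair, which were 13.6% of all tested IDs. For eIF4A over CBX1 the same direction was found in 382 (81.5%, against 59.9% of all tested IDs). Of the 469, 173 were called the same way and 10 the opposite way. Among all tested IDs 950 were called (9.48%), 738 the same way and 212 the opposite way. For eIF4E over eIF4A the same direction was found in 315 (67.2%, against 54.3%). There 72 of the 469 were called the same way and 16 the opposite way. Among all tested IDs 619 were called (6.18%), 416 the same way and 203 the opposite way. These pairs were examined after the results were seen. Whether these populations shared a preparation was not tested.

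**Figure D3:**
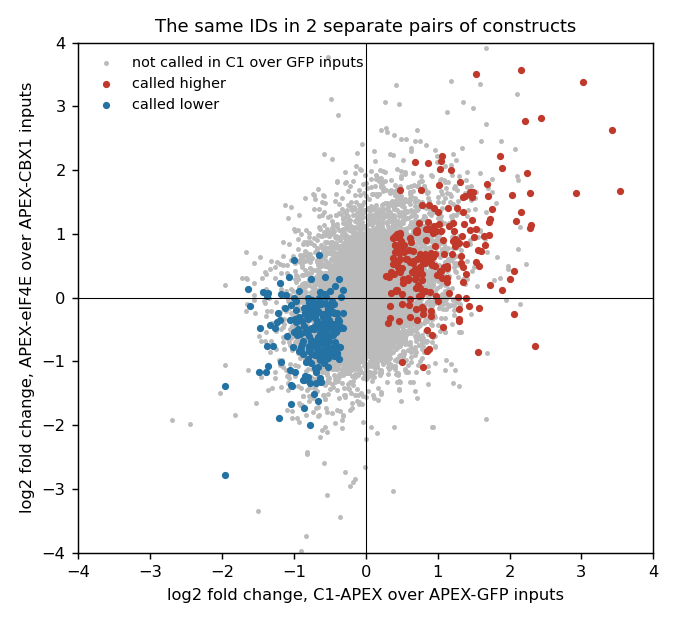
Log2 fold change of APEX-eIF4E over APEX-CBX1 inputs (vertical) against that of C1-APEX over APEX-GFP inputs (horizontal), 1 point per tested ID, with the 230 higher IDs in red and the 239 lower in blue; 8 IDs lie outside the axes. Of the coloured points, 414 lie in the upper right or lower left quadrant.

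The pulldowns of the same constructs gave a second set of libraries, which held 1718517 to 2581655 counts. Inputs and pulldowns may come from the same cells, so a difference between cultures or preparations could be in both. A shared direction therefore need not be a replication in separate cells. All 469 IDs were also tested in the pulldowns. Of them, 406 (86.6%) differed in the same direction in C1-APEX over APEX-GFP pulldowns, against 62.1% of all IDs tested in both, a share not matched for level. The median log2 difference in pulldowns was 0.59 for the 230 higher IDs, of which 189 kept their direction, and -0.55 for the 239 lower IDs, of which 217 did. The pulldown comparison by itself called 66 of 12714 IDs (0.519%; edgeR), 32 higher (0.252%) and 34 lower (0.267%). Of the 469, 30 were among those calls, all in the input's direction. Over all IDs tested in both fractions, 60 pulldown calls went in the input's direction and 3 the opposite way. In pulldowns, 2091 IDs had an unadjusted p under 0.05. The 30 made up 6.4% of the 469 and 45.5% of the 66. The C1-APEX pulldown replicates correlated at 0.878 across 2642 IDs, below the 0.952 to 0.975 of the other 4 pairs. Without C1-APEX pulldown replicate 1 the same direction was found in 404 IDs (86.1%, against 61.0% of all IDs tested in both). The medians were then 0.55 and -0.46. The pulldown count was unstable: 253 without C1-APEX replicate 1, 2560 without C1-APEX replicate 2, 5 without APEX-GFP replicate 1 and 3 without APEX-GFP replicate 2, and higher IDs were 48.5% of calls with TMM but 15.7% with library size. With 1 of the 4 pulldown libraries left out at a time, 83.6% to 86.8% of the 469 had the same direction.

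**Figure D4:**
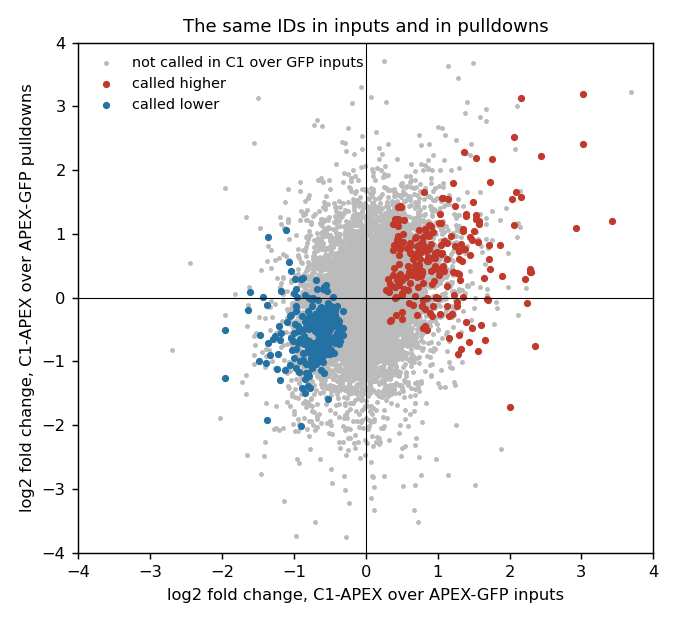
Log2 fold change of C1-APEX over APEX-GFP in pulldowns (vertical) against inputs (horizontal), 1 point per ID tested in both, with IDs called in inputs in red (higher) and blue (lower); 17 IDs lie outside the axes. Of the 469 coloured IDs, 406 have the same sign in both fractions.

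**Figure D5:**
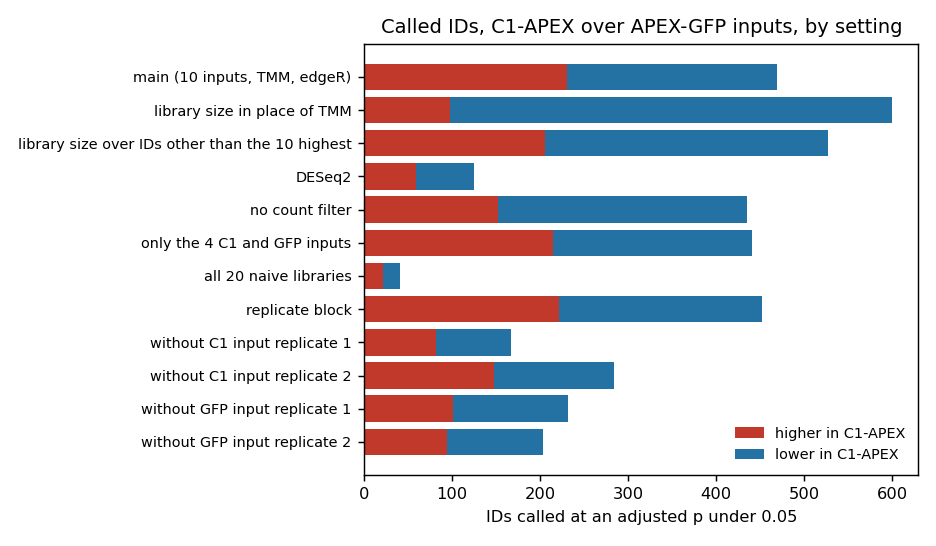
Number of IDs called in C1-APEX over APEX-GFP inputs under each setting (horizontal), split into higher (red) and lower (blue). The total is 469 in the main setting, 41 with all 20 naive libraries and 600 with library size in place of TMM.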

How the data were processed

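The authors deposited raw whole-number counts per Ensembl gene ID. Per the submitters' processing notes these were made with cutadapt, HISAT2 and featureCounts on GRCh38; versions, strand setting and the handling of reads on more than 1 gene were not given in the sources used here, so near-identical copies and overlapping genes are uncertain. Libraries were made with a directional kit, per the labels, which name no molecular identifiers; intervals and floors cover counting error only. Columns were mapped to samples by name, except eIF4A input replicate 2, whose name 2 samples carry and which was assigned by its naive condition and the constructs of the table.

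The 10 naive inputs, 1419968 to 2629957 counts each, were fitted with edgeR 4.0.16 in R 4.3.3: filterByExpr, TMM, estimateDisp, robust glmQLFit and a 2-sided F test, 1 mean per construct, with an adjusted p under 0.05 as the call. Inputs were fitted apart from pulldowns, a choice made with an earlier fit of all 20 naive libraries and its fewer calls known. Replicate pulldowns correlated at 0.878 to 0.975 over 2642 IDs and inputs at 0.978 to 0.987 over 1735, the IDs with at least 5 log2 CPM in each fraction. The pulldowns had a fit of their own. Log2 CPM used a prior count of 2, and a standard error is the log2 fold change divided by the square root of F. The fit was run on simulated counts drawn with its own estimated spread, so the run cannot tell whether that spread is right. Of 50 changed IDs per fold, 5 were recovered at 1.5-fold, 25 at 2-fold, 45 at 4-fold and 44 at 8-fold. Of 9819 unchanged IDs, 6 were called. Alternatives were library size, library size without the 10 highest IDs, no count filter, a fit of the 4 libraries alone, DESeq2 1.42.0, all 20 naive libraries, a replicate block and each library left out.

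The comparison and gene lists were chosen with earlier results of these data known. The 28 gene lists, the cell markers and the rule for named genes (the 15 called IDs with a symbol and the largest fold change in each direction, and called list members) need symbols and could not be applied, since 0 IDs matched. The pairs of other constructs were examined after the results were seen. The stress libraries were not used here.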

Additional observations from a re-analysis of the deposited data

How the results depend on the processing

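Counts for C1-APEX over APEX-GFP inputs stayed within 1.5 times of 469 with library size (600), library size without the 10 highest IDs (527), no count filter (435), a fit of the 4 libraries alone (441) and the replicate block (452). They left that range with DESeq2 (125: 59 higher, 66 lower) and all 20 naive libraries (41: 21 higher, 20 lower), and with 1 library left out, where they ran from 167 to 284 (82 to 148 higher, 85 to 136 lower). By direction, library size gave 98 higher and 502 lower, and no count filter 152 higher and 283 lower; without the 10 highest IDs library size gave 39.1% higher. For C1-APEX over the mean of CBX1, eIF4E and eIF4A the count of 86 became 18 with DESeq2, 7 with all 20 libraries and 23 to 41 with 1 library left out. For APEX-GFP over that mean, 479 became 1680 with library size, 151 with DESeq2 (29.1% higher), 41 with all 20 libraries and 155 to 197 with 1 library left out. For the pulldowns, 66 became 216 with library size, 187 with DESeq2, 29 with the replicate block and 3 to 2560 with 1 library left out. The causes were not tested. Same-numbered C1-APEX and APEX-GFP inputs did not deviate together (correlation -0.0197 over 1735 IDs). The labels give the numbers no shared origin, so they were not taken to pair libraries; the block left 444 of the 469 input calls. The 4 printed IDs stayed called in every alternative that gave an adjusted p (10 or 11 each). DESeq2 gave none to ENSG00000179388.8 or ENSG00000092067.5. These IDs were picked on their values in the main fit, and the alternatives reuse its libraries, so this is no separate test of them. At 16.8 counts per library, the median under 4 log2 CPM, with a standard error of 0.39, 96 of the 102 calls were at least 2-fold, so smaller differences were mostly not detectable there.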

Other observations

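A few IDs were seen on one side only. With at least 5 counts in both libraries of one group and 0 in both of the other, 6 IDs were present in APEX-GFP and 3 in C1-APEX inputs, of 60483. ENSG00000092067.5 is 1 of the 6, and the other IDs had only 5 to 8 counts per library on the side where they were seen. APEX-GFP inputs held more counts outside the 10 highest IDs than C1-APEX inputs (mean 712200 against 473600). The effect of this on the 6 and 3 was not tested. None of these 9 IDs was at 0 in all 6 inputs of the other constructs (0 of 6 and 0 of 3), and 2 of the 6 and 1 of the 3 had counts in all of them. Among 408 called IDs with a mean of at least 20 counts, 5 matched another tested ID within 5% in all 10 inputs. Copies that differ by more than 5% in any input fall outside this rule, so 5 is not an upper limit. ENSG00000275708.1, ENSG00000276104.1 and ENSG00000274426.1, all called higher, had log2 differences from APEX-GFP of 0.43, 0.43 and 0.48 in C1-APEX inputs. In eIF4E inputs the values were 0.88, 0.89 and 0.92. Whether such IDs count the same RNA more than once was not tested.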
